A study of Mus musculus with 14 samples.

Results

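The genes described here encode the subunits of the oxidative phosphorylation system of the mouse heart. They were chosen by gene symbol alone: complex I genes named Nduf with the letters a, b, c, s or v and a number, Sdha to Sdhd, the Uqcr genes and Cyc1, Cox4 to Cox8 genes, Cycs, the Atp5 genes, and the protein-coding genes of mitochondrial DNA, with pseudogene names left out. The rule found 96 of the 49315 genes in the count table. Of these, 83 lie in nuclear DNA and 13 in mitochondrial DNA. The nuclear members comprise 35 genes of complex I, 4 of complex II, 9 of complex III, 18 of complex IV, 16 of complex V and the single cytochrome c gene Cycs. Ndufa4 was placed with complex IV, where its protein is now assigned, and Atp5s, which the name rule places with complex V, encodes a coupling factor and not a structural subunit. The mitochondrial members comprise 7 genes of complex I, 1 of complex III, 3 of complex IV and 2 of complex V.

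Oxidative phosphorylation is carried out by protein complexes of the mitochondrial inner membrane. Complexes I and II pass electrons from NADH and succinate to ubiquinone, complex III passes them to cytochrome c, complex IV passes them to oxygen, and complex V uses the resulting proton gradient to make ATP. All complexes but complex II hold subunits from both genomes, and the contracting heart muscle depends on this system for most of its ATP. Several complex IV subunits have a heart and muscle form and a form found in other tissues.

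RNA sequencing was done on total RNA from pulverised hearts of wild-type C57BL/6 males fed a standard chow, 4 libraries from mice of 12 weeks and 4 from mice of 68 weeks. The labels do not say whether each library came from its own mouse, so the p-values below measure the spread between these libraries. Libraries held 23599296 to 34599121 counts in genes. Lists of regions carrying H3K27me3, a histone mark of silenced chromatin, came from hearts of the same ages.

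Markers of the labelled tissue were high in every library: 14 cardiomyocyte genes such as Myh6 and Tnnt2 summed to between 67312 and 80708 CPM (read counts scaled to a common library total). Transcripts of airway lining were also present, and most abundant in 4 of the libraries. The sum of their 20 markers was 1875, 998, 596 and 63.1 CPM for the younger age, in the order of replicates 1 to 4, and 29.5, 18.1, 1121 and 26.3 CPM for the older age. Most of the low sums came from 1 marker, Tppp3, which stood at 15.9 to 35.8 CPM in every library. In 12-week replicate 4 and 68-week replicates 1, 2 and 4 it had 34.8, 27.4, 15.9 and 24.6 CPM. Scgb1a1 had 6.02, 0.196, 0 and 0.0578 CPM in the same libraries. In bulk tissue, fewer cells of a type and less RNA per cell cannot be told apart.

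Promoter sequence was available for 66 of the 83 nuclear members, from the RefSeq table of build GRCm38.p6, as windows of 300 bases that run from 250 bases before to 50 bases after each annotated start. The nuclear subunit genes are known targets of the factors NRF1, GABPA, YY1 and the estrogen-related receptors, so a short core of each factor's motif was searched on both strands. The NRF1 core GCATGCGC lay in the windows of 11 of the 66 members (16.7%), against 824 of all 27025 genes with a window (3.05%). The YY1 core AAGATGGC lay in 9 members (13.6%) against 3.19% of all genes, and the receptor core CAAGGTCA in 4 (6.06%) against 1.76%. The ETS core CCGGAAGT, which GABPA binds, lay in 5 members (7.58%) against 4.31%, and the TATA box core TATAAA in 7 (10.6%) against 15.7%. The members' windows were also richer in CpG dinucleotides than those of all genes, with a median of 19 against 7, and richer in G and C, with a median of 57.3% against 52.7%. These are matches of letters and do not show binding.

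The promoters of the complex IV genes on which the results below turn are given as the 250 bases before the RefSeq start, 5′ to 3′ on the gene's own strand, with matches to the NRF1 core in capitals. They are Cox7a1 (plus strand, chr7:30183921-30184170), Cox7a2 (minus strand, chr9:79759854-79760103) and Cox6a1 (minus strand, chr5:115348959-115349208), all in GRCm38.p6. RefSeq places these starts inside the genes as the count table bounds them, so the last 27, 25 and 23 bases of the stretches, in that order, lie within the table's gene.
Cox7a1: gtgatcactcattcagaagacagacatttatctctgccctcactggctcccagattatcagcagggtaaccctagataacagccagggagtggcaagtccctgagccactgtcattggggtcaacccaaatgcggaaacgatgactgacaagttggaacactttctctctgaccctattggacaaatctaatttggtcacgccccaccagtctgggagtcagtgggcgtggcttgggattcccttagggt
Cox7a2: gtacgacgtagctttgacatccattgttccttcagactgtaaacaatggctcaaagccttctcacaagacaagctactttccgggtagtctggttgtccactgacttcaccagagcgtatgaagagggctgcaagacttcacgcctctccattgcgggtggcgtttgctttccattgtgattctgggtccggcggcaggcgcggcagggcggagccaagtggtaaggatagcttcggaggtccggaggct
Cox6a1: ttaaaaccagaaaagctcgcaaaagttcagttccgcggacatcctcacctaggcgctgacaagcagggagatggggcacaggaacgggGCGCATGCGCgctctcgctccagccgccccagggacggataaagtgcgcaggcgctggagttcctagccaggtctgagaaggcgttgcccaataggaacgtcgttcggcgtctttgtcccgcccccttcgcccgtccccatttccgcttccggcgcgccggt
The stretch shown for Cox7a1, the striated muscle form, holds 4 CpG dinucleotides. That of Cox7a2, the form found in most tissues, holds 14, and that of Cox6a1, another widely expressed form, holds 26. Of the 3, only the Cox6a1 stretch holds the NRF1 core, where both strands match in overlapping positions.

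None of the 94 members tested passed the threshold for a difference between the ages, which does not show that their levels were equal. Counts were compared at 68 against 12 weeks by edgeR's quasi-likelihood test over 15947 genes, with an adjusted p of 0.05 as the threshold. Across all genes this test called 451 (2.83%), of which 256 were higher and 195 lower at 68 weeks. With library totals as the only scaling, 176 were higher and 248 lower. Of the members, 0 were called by edgeR and 0 by DESeq2, and 2 had an unadjusted edgeR p below 0.05, where 19.0% of all genes did. The 2 were Cox7a1 and Ndufa11. No member had values at the 2 ages that did not overlap, while 12.1% of all genes did. Cox7b2 and Cox8c, described as testis forms in other work, were too low to test: Cox7b2 had 1 to 8 counts per library, and Cox8c had 1 count in 68-week replicate 2 and 0 in the other 7 libraries.

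For the nuclear members the intervals were narrow. Their log2 fold changes ran from -0.20 for Cox7a1 to 0.18 for Atp5g2, with a median of -0.01, and the median over all genes tested was also -0.01. Of the 81 nuclear members tested, 33 lay above 0 and 48 below. The 95% confidence interval of the fold change stayed within a factor of 1.5 in either direction for 79 of the 81 and within a factor of 2 for all 81. The widest interval was that of Cox6a1. With counts scaled by library totals alone, without edgeR's correction for composition, the median of all genes moved to -0.07 and that of the nuclear members moved with it, to -0.07.

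**Figure D1:**
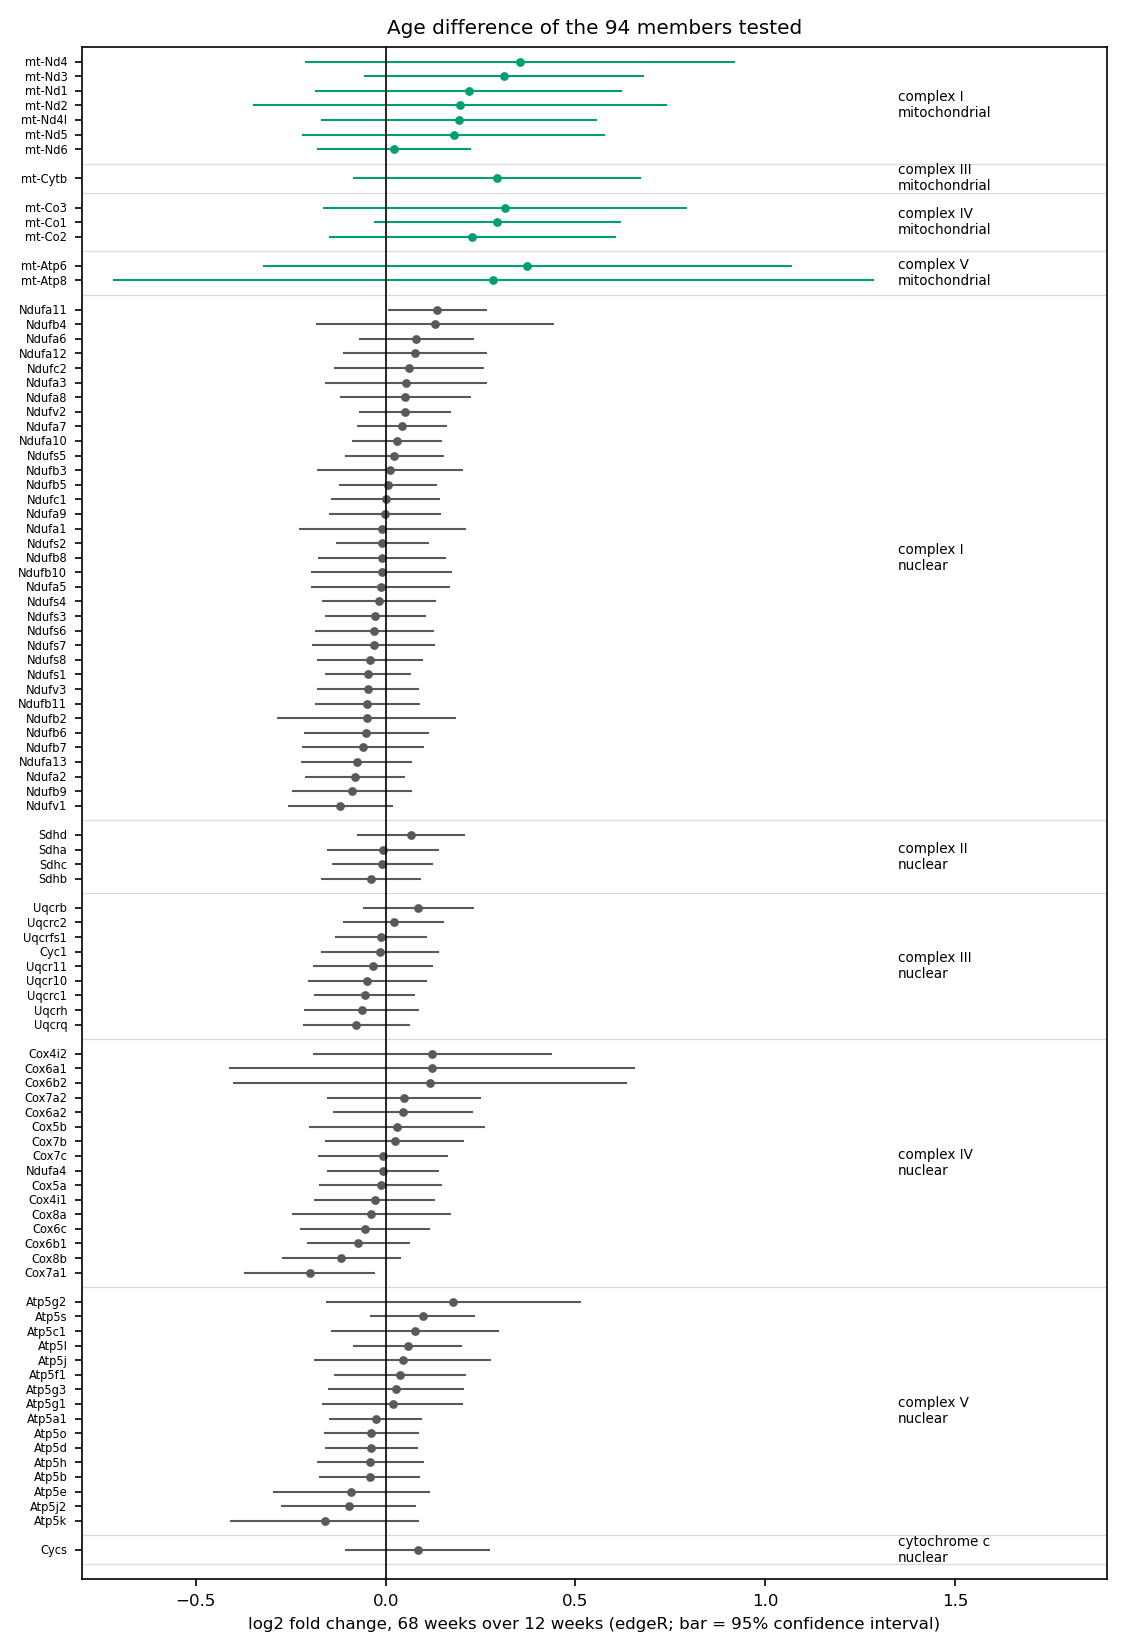
Log2 fold change at 68 against 12 weeks (horizontal axis) for each of the 94 members tested, grouped by complex and genome, with bars for the 95% confidence interval. The 81 nuclear members (grey) lie between -0.20 and 0.18, and the 13 mitochondrially encoded members (green) lie between 0.02 and 0.37 with wider intervals.

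For the mitochondrially encoded members the limits were wide. All 13 lay above 0, with a median log2 fold change of 0.28, but 0 were called by edgeR, and 3 of the 13 had an interval within a factor of 1.5. The 12-week libraries differed most from each other. The mRNA and tRNA genes of mitochondrial DNA took 7.41%, 8.07%, 11.5% and 11.4% of the counts in 12-week replicates 1 to 4, and 10.1%, 11.5%, 12.1% and 10.8% in 68-week replicates 1 to 4. The 2 ribosomal RNA genes of mitochondrial DNA are absent from the count table and from these shares. Each of the 13 had its lowest level in 12-week replicate 1 or 2.

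Levels of single genes below are CPM on normalized library sizes, listed for replicates 1 to 4. The catalytic subunit of complex IV, mt-Co1, stood at 34582, 41287, 55091 and 55609 CPM at 12 weeks and at 51379, 59435, 60227 and 57795 CPM at 68 weeks. Replicates 1 and 2 of the younger age lay below all other libraries, and replicates 3 and 4 lay within the range of the older age. The log2 fold change of mt-Co1 was 0.29 ± 0.144 (SE; edgeR adjusted p = 0.307). The complex III subunit mt-Cytb, cytochrome b, had 9748, 11606, 16668 and 17038 CPM at 12 weeks and 15372, 17868, 18271 and 15945 CPM at 68 weeks, with the same 2 libraries lowest and a log2 fold change of 0.29 ± 0.168 (edgeR adjusted p = 0.380).

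The membrane arm subunits of complex I followed the same order of libraries. mt-Nd1 had 8292, 9180, 15241 and 13493 CPM at 12 weeks and 12023, 14495, 14280 and 12985 CPM at 68 weeks. mt-Nd2 had 3275, 3433, 7247 and 6194 CPM against 4971, 6297, 6228 and 5584 CPM. In both genes, 12-week replicates 1 and 2 were lowest and 12-week replicate 3 was highest of all 8. mt-Nd4 had 1770, 2044, 4050 and 3710 CPM at 12 weeks and 3129, 4047, 4208 and 3413 CPM at 68 weeks. mt-Nd5 had 8188, 8573, 14228 and 13321 CPM against 11546, 13233, 13786 and 11627 CPM. The log2 fold changes of these 4 genes ran from 0.18 to 0.35, with standard errors of 0.177 to 0.251.

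Of the 13, mt-Nd6 varied least, with an SD of 0.13 on the log2 scale over the 8 libraries where the others had 0.28 to 0.82. It is the single mRNA gene annotated on the minus strand of mitochondrial DNA, by convention called a light strand gene, while the other 12 are on the plus strand. It had 2137, 2060, 2665 and 2470 CPM at 12 weeks and 2262, 2456, 2552 and 2213 CPM at 68 weeks, and the log2 fold change was 0.02 ± 0.0893 (edgeR adjusted p = 0.915). Its counts were 3.24%, 2.71%, 2.37% and 2.259% of the summed counts of mt-Nd1, mt-Nd2, mt-Nd4, mt-Nd5, mt-Co1 and mt-Cytb in the 12-week libraries, and 2.30%, 2.13%, 2.18% and 2.06% in the 68-week libraries. Thus 12-week replicates 1 and 2, low in the plus strand transcripts, had the highest share of mt-Nd6, replicate 3 also lay above the 4 older libraries, and replicate 4 lay within their range.

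**Figure D2:**
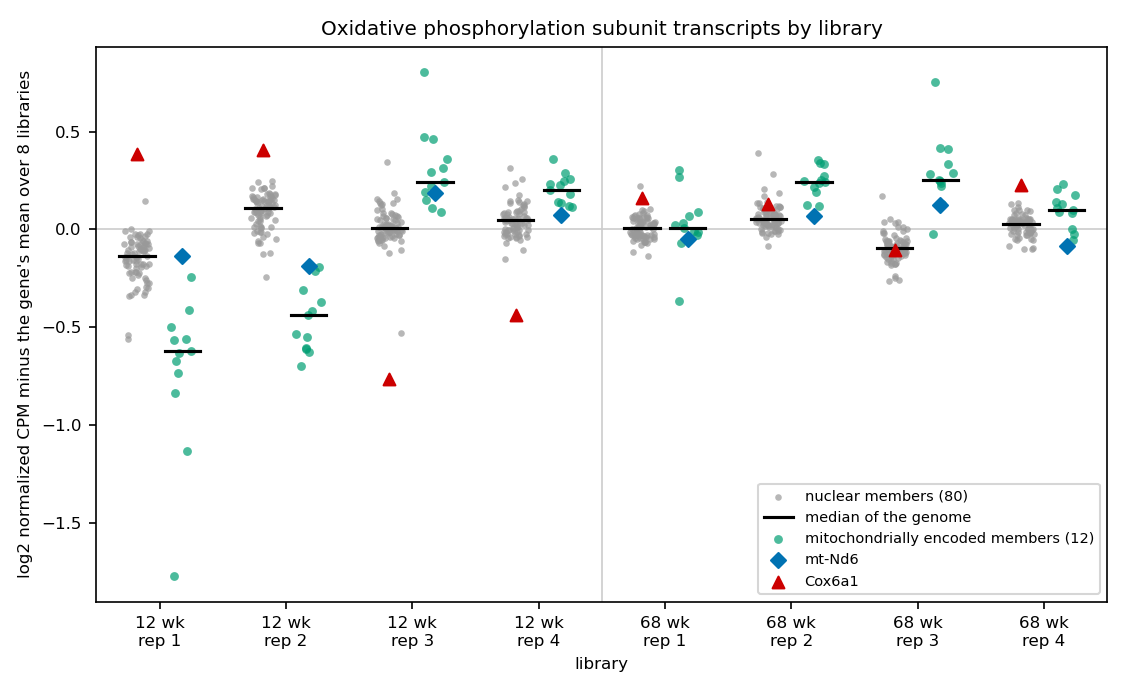
Each member's log2 CPM minus its mean over the 8 libraries (vertical axis), by library (horizontal axis), with the median of each genome as a black line. The mitochondrially encoded members (green) have medians of -0.62 and -0.44 in 12-week replicates 1 and 2 and of 0.01 to 0.26 in the other 6 libraries, mt-Nd6 (blue) moves less, and Cox6a1 (red) is low in 12-week replicates 3 and 4.

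How the mitochondrial transcripts compared between ages therefore depended on which 12-week libraries were used. Without 12-week replicates 1 and 2, the median log2 fold change of the 13 was -0.07 and 0 were called by edgeR. Without 12-week replicates 3 and 4 instead, a choice made after the data were seen, the median was 0.66 and 9 of the 13 were called higher, among them mt-Co1 at 0.59 ± 0.0967 (edgeR adjusted p = 0.0379). The summed airway markers given above were highest in 12-week replicate 1, 68-week replicate 3 and 12-week replicate 2, which had mitochondrial shares of 7.41%, 12.1% and 8.07%. With the airway markers as a term in the edgeR model, the median of the 13 was 0.18 and 0 were called. The part of airway tissue in these values was not tested.

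The remaining 6 mRNA genes of mitochondrial DNA had very few counts. They are mt-Co2, mt-Co3, mt-Atp6, mt-Atp8, mt-Nd3 and mt-Nd4l, and they lie next to each other, from base 7013 to base 10173. Each had 11 to 1618 counts per library, while each of the other 7 had at least 56930. Together the 6 took 0.0925% to 0.118% of the counts of the 13 genes. mt-Co2 and mt-Co3 encode core subunits of the same enzyme as mt-Co1.

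A stretch of chromosome 1 is annotated with genes of the same order and nearly the same lengths. In mm10, the build of the count files, it holds 7 genes on the minus strand from 24611535 to 24616197. Gm10222 has 294 bases beside the 297 of mt-Nd4l, Gm28438 has 345 beside the 348 of mt-Nd3, and Gm28437 has 783 beside the 784 of mt-Co3. Gm10925 has 678 beside the 681 of mt-Atp6 and is listed by RefSeq as a pseudogene with mt-Atp6 among its synonyms. Gm28661 has 681 bases beside the 684 of mt-Co2. Gm29216 and Gm28439 lie at the ends of the stretch, and no gene of the length of mt-Atp8 was found there. The 7 had 1038 to 2096 counts per library in sum. The sources used here do not give how reads matching more than 1 place were handled. The levels of the 6 mitochondrial genes are therefore uncertain, as are those of the 7 genes on chromosome 1.

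**Figure D3:**
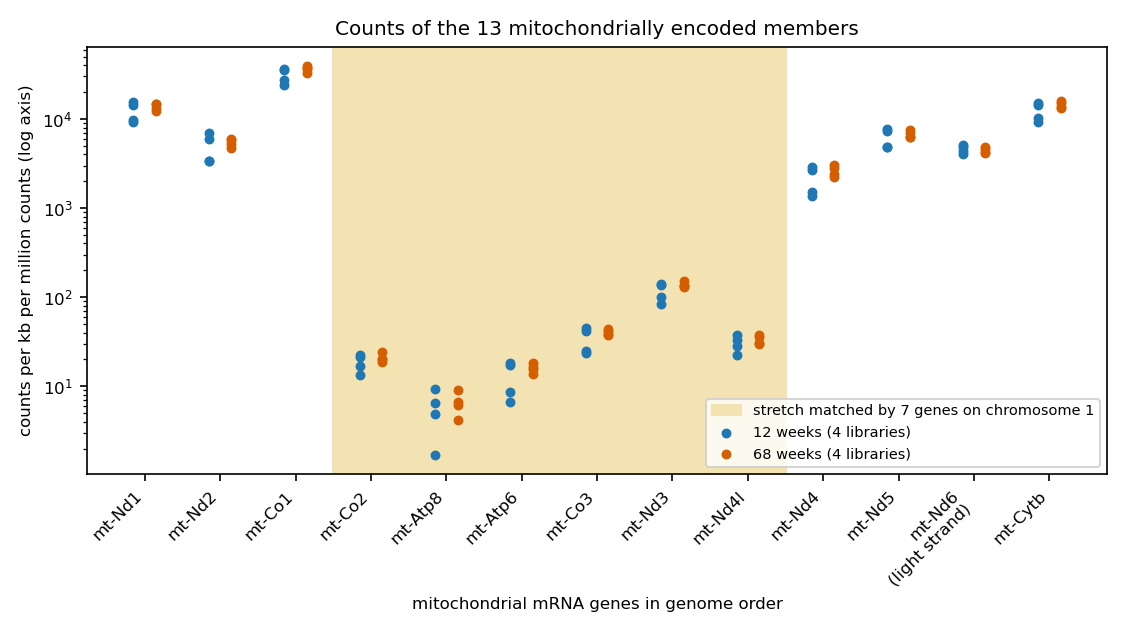
Counts per kb of gene, scaled to library total (log axis), of the 13 mitochondrial mRNA genes in genome order, with 4 libraries per age as points. The 6 genes in the shaded stretch, matched by 7 genes on chromosome 1, lie more than 10-fold below the 7 genes outside it at both ages.

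Among these 6, the values followed the order of libraries seen above, at low counts. mt-Co2 had 8.57, 11.5, 15.5 and 14.4 CPM at 12 weeks and 13.9, 14.5, 16.7 and 13.1 CPM at 68 weeks. mt-Co3 had 17.1, 19.4, 33.6 and 34.8 CPM against 30.2, 33.7, 34.7 and 31.1 CPM. In both, 12-week replicates 1 and 2 were lowest. mt-Atp6, a proton channel subunit of complex V, had 4.21, 5.71, 12.7 and 11.9 CPM at 12 weeks and 9.40, 11.7, 12.4 and 10.9 CPM at 68 weeks. mt-Atp8, its neighbour, had 0.324, 0.970, 1.94 and 1.30 CPM against 0.861, 1.41, 1.87 and 1.28 CPM, the widest spread of the 94 members tested. The complex I genes mt-Nd3 and mt-Nd4l differed in that 12-week replicate 2, not replicate 1, was lowest. mt-Nd3 had 32.6, 28.4, 49.6 and 47.7 CPM against 53.6, 47.2, 47.5 and 47.7 CPM, and mt-Nd4l had 7.89, 6.46, 9.94 and 11.2 CPM against 11.3, 11.03, 9.22 and 9.01 CPM.

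Complex IV held the member nearest to a call. Cox7a1 (chr7:30184144-30186078, plus strand, mm10) had 506, 616, 585 and 583 CPM at 12 weeks and 525, 525, 446 and 499 CPM at 68 weeks. The older libraries were lower than 3 of the 4 younger ones, and 12-week replicate 1 lay within their range. The log2 fold change was -0.20 ± 0.0758 (95% interval -0.37 to -0.03), with an edgeR adjusted p of 0.196. It lay below 0 in all 18 alternative fits, between -0.30 and -0.15, and passed the threshold in 0 of them, with adjusted p from 0.0617 to 0.394.

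Cox7a2 (chr9:79755361-79759878, minus strand, mm10) encodes the form of the same subunit found in most tissues. It had 203, 246, 259 and 276 CPM at 12 weeks and 267, 258, 235 and 257 CPM at 68 weeks, with wide overlap. Per length, as TPM (transcript levels scaled to a common total), Cox7a1 was 4.40, 4.42, 3.98 and 3.73 times as abundant as Cox7a2 at 12 weeks. At 68 weeks it was 3.47, 3.59, 3.35 and 3.42 times as abundant, and the ages did not overlap. The mean log2 ratio of counts went from 1.22 ± 0.118 to 0.97 ± 0.0414 (SD, n = 4 each), a difference of -0.25. An exact two-sided permutation test gave p = 0.0286, the smallest that 4 against 4 libraries can give, and 0.171 adjusted over the 6 isoform pairs compared. The ratio needs no scaling between libraries, but the pair was listed with earlier results of these data known.

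Cox7a1 and Cox8b are also abundant in brown fat, and markers of that tissue differed between the ages. Of the 7 other brown fat markers tested, 0 lay above 0 and edgeR called Elovl3 and Dio2 lower at 68 weeks. The list summed to 797 to 1127 CPM at 12 weeks and to 671 to 713 CPM at 68 weeks, most of it from Kcnk3 and Ppargc1a, which heart muscle also expresses. Of its defining genes, Zic1 was too low to test, at 0 in 12-week replicate 4 and 68-week replicate 2 and at no more than 0.0718 CPM elsewhere. Elovl3 was at 0 in 68-week replicate 4. The defining gene of that tissue, the uncoupling protein Ucp1, had 103, 64.2, 117 and 368 CPM at 12 weeks and 14.7, 40.5, 54.98 and 0.892 CPM at 68 weeks, with no overlap. Some markers of other tissues and cells were called as well, where 2.83% of all genes tested were. Of the white fat markers, edgeR called 5 of 10 lower, among them Adipoq (log2 fold change -1.86) and Cfd (-1.71), and 1 higher, Nnat (0.74). That list summed to 656 to 1082 CPM at 12 weeks and to 322 to 544 CPM at 68 weeks, and no marker of it was at 0 in any library. Of the leukocyte markers, 3 of 11 were called lower (Ptprc, Cd79a and Cd79b), of the fibroblast markers 1 of 10 (Col1a1, -0.73), and of the cardiomyocyte markers 1 of 14 was called higher (Myh7, 0.83). Of the endothelial markers 0 of 10 were called, of the skeletal muscle markers 0 of 6, and of the airway markers 0 of 20. A single called marker is not read as a difference of its cell type. The part of these tissues and cells in the Cox7a1 difference was not tested.

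The other muscle forms of complex IV overlapped between the ages. Cox8b, the nuclear member of complex IV with the highest level per length (3258 ± 318 TPM at 12 weeks and 2806 ± 80.8 TPM at 68 weeks, SD, n = 4), had 450, 554, 483 and 493 CPM against 456, 486, 436 and 448 CPM. Its log2 fold change was -0.12 ± 0.0687 (edgeR adjusted p = 0.390). Cox8a, the form of other tissues, had 77.8, 86.3, 95.9 and 108 CPM at 12 weeks and 92.9, 89.5, 83.8 and 92.6 CPM at 68 weeks. Their log2 ratio was 2.43 ± 0.217 at 12 and 2.35 ± 0.0776 at 68 weeks (SD, n = 4 each; exact permutation p = 0.486).

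Cox6a2, the heart form of subunit 6a, had 466, 530, 619 and 535 CPM at 12 weeks and 569, 570, 521 and 558 CPM at 68 weeks, with the older libraries inside the range of the younger. Cox4i1, the common form of subunit 4, had 1135, 1406, 1231 and 1279 CPM against 1280, 1283, 1164 and 1224 CPM. Cox4i2, a form known from lung and from low oxygen, had 3.95, 3.27, 3.31 and 3.21 CPM against 3.25, 4.69, 3.55 and 3.54 CPM, far below Cox4i1 at both ages. The ratio of its TPM to that of Cox4i1 ran from 0.00457 to 0.00684 at 12 weeks and from 0.00499 to 0.00718 at 68 weeks (exact permutation p of the log2 ratio = 0.400).

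**Figure D4:**
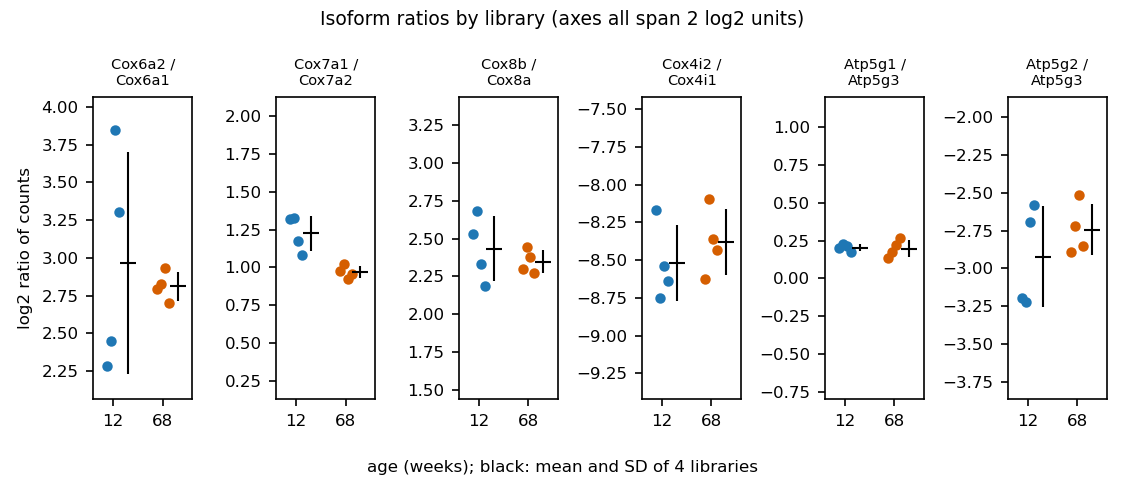
Log2 ratio of counts (vertical axes, each spanning 2 units) of 6 pairs of isoforms in each library, at 12 weeks (blue) and 68 weeks (orange), with mean and SD of 4 libraries in black. Cox7a1 to Cox7a2 is the one pair whose ages do not overlap, and Cox6a2 to Cox6a1 has the widest spread, an SD of 0.735 at 12 weeks.

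Cox6a1 (chr5:115345642-115348981, minus strand, mm10) varied more than any other nuclear member, with an SD of 0.41 on the log2 scale over the 8 libraries against a median of 0.10 for the 81. It had 95.8, 97.1, 43.1 and 54.2 CPM at 12 weeks and 82.1, 80.3, 68.3 and 85.8 CPM at 68 weeks. Replicates 3 and 4 of the younger age were thus below all others, and replicates 1 and 2 above all others. The log2 fold change was 0.12 ± 0.237, and it was 0.70 without 12-week replicates 1 and 2 and -0.28 without replicates 3 and 4 (edgeR adjusted p = 0.0638 and 0.155). With replicates 1 and 2 left out and airway markers in the model, a fit chosen after the data were seen, it was called higher, at 0.61 (edgeR adjusted p = 0.0304). That fit kept only replicates 3 and 4 of the younger age, the lowest for Cox6a1, so the direction of the call was set by that choice. The sign of the difference thus depended on which 12-week libraries were used.

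The low level of Cox6a1 in those libraries was shared by the genes beside it. These neighbours were looked up after its values were seen, and the stretch was bounded by genes low in the same libraries. The counts below are therefore a description and not a test. From Sppl3 to Cox6a1, bases 115011137 to 115348981 of chromosome 5, 14 genes had a mean of at least 10 counts. In 13 of them, Cox6a1 included, both 12-week replicates 3 and 4 lay below the other 6 libraries, which was the case for 4.55% of all genes tested. They stood at 42.0% to 64.4% of the mean of the other 6, with a median of 49.3%. The exception was Rpl37rt, at 102%.

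The stretch holds other mitochondrial genes. Coq5, a methyltransferase of ubiquinone synthesis, had 116, 133, 58.6 and 57.4 CPM at 12 weeks and 126, 136, 123 and 138 CPM at 68 weeks. Acads, which oxidises short-chain fatty acids, had 200, 211, 91.3 and 99.1 CPM against 201, 200, 190 and 192 CPM. In both, 12-week replicates 3 and 4 lay far below the other 6. Beyond Cox6a1 the next gene with a mean of at least 10 counts, Msi1, an RNA-binding protein known from neural tissue, went the other way: 0.795, 0.575, 24.2 and 25.6 CPM at 12 weeks and 0.629, 0.288, 0.548 and 0.476 CPM at 68 weeks. On either side of the stretch, 2210016L21Rik stood at 99.7% and Sirt4 at 94.5% of the mean of the other 6 libraries. The cause of this shared difference between libraries of 1 age was not tested.

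**Figure D5:**
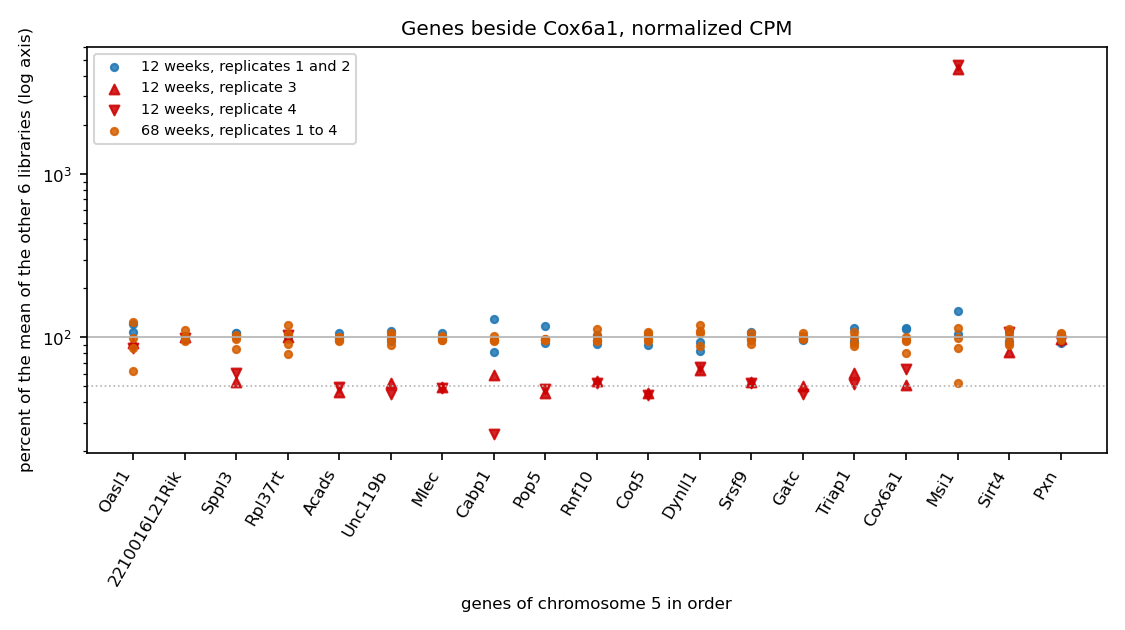
CPM of genes around Cox6a1 in chromosome order (horizontal axis), as percent of the mean of the 6 libraries other than 12-week replicates 3 and 4 (log axis). From Sppl3 to Cox6a1 the 2 libraries (red triangles) lie near 50%, except at Rpl37rt, while Msi1 is far above 100% in both.

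Of complex I, the 35 nuclear members had a median log2 fold change of -0.01, with 14 above 0 and 21 below, and 0 called by edgeR. Ndufa11, an accessory subunit of the membrane arm, had 165, 187, 187 and 179 CPM at 12 weeks and 185, 203, 195 and 206 CPM at 68 weeks. All older libraries but one were above all younger ones. The log2 fold change was 0.14 ± 0.0572 (edgeR adjusted p = 0.239). Ndufv1, the core subunit that takes electrons from NADH, had 623, 702, 629 and 686 CPM against 634, 634, 573 and 591 CPM, with a log2 fold change of -0.12 ± 0.0603 (edgeR adjusted p = 0.323).

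Per length, levels of the nuclear members of complex I ranged from Ndufb9, an accessory subunit with 1505 ± 122 TPM at 12 weeks and 1322 ± 51.3 TPM at 68 weeks, to Ndufb2 with 56.4 ± 5.49 and 51.1 ± 4.66 TPM (SD, n = 4). The length counted for Ndufb2 is 5628 bases and that for Ndufb9 is 651, the union of the annotated exons, so exons not used in heart would lower a TPM. In CPM, Ndufb9 had 376, 454, 415 and 410 at 12 weeks and 393, 408, 354 and 401 at 68 weeks. Ndufb2 had 111, 152, 136 and 139 CPM against 141, 131, 111 and 137 CPM. Neither separated the ages. Ndufb2 also overlaps the gene Braf on the other strand, and whether counting used strand is not given in the sources used here.

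Complex II has no mitochondrially encoded subunit, and 0 of its 4 members were called by edgeR. Its flavoprotein Sdha had 1243, 1391, 1387 and 1457 CPM at 12 weeks and 1421, 1435, 1278 and 1317 CPM at 68 weeks. Sdhb, the iron-sulfur subunit, had 582, 647, 576 and 574 CPM against 575, 587, 547 and 608 CPM. Both overlapped between the ages, with log2 fold changes of -0.01 ± 0.0645 and -0.04 ± 0.0577. The membrane anchor Sdhc had 366, 400, 388 and 406 CPM at 12 weeks and 409, 405, 373 and 362 CPM at 68 weeks. The other anchor, Sdhd, had 302, 356, 326 and 339 CPM against 345, 368, 325 and 348 CPM, the log2 difference being 0.07 ± 0.0624. For these 4 genes every 95% interval lay within a log2 fold change of -0.17 to 0.21.

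In complex III, 7 of the 9 nuclear members lay below 0 and 2 above, with a median of -0.03 and 0 called by edgeR. Cyc1, cytochrome c1, had the highest level per length of these 9 (1193 ± 75.5 TPM at 12 weeks and 1105 ± 33.6 TPM at 68 weeks, SD, n = 4) and 536, 645, 605 and 623 CPM against 578, 630, 560 and 617 CPM. Uqcrb, which binds ubiquinone, had 271, 320, 316 and 325 CPM at 12 weeks and 324, 343, 315 and 325 CPM at 68 weeks. Only 12-week replicate 1 stood apart there, and the log2 fold change was 0.09 ± 0.0643. Uqcrq, an accessory subunit with the lowest level per length, had 432, 512, 461 and 485 CPM against 450, 457, 423 and 461 CPM, a log2 fold change of -0.08 ± 0.0614.

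Of the 16 nuclear members of complex V, 8 lay above 0 and 8 below, and 0 were called by edgeR. Atp5a1, the alpha subunit of the catalytic head, had 4006, 4477, 4076 and 4211 CPM at 12 weeks and 4189, 4229, 3953 and 4095 CPM at 68 weeks, a log2 fold change of -0.03 ± 0.0534. Atp5k, subunit e of the membrane part, had 77.9, 96.8, 111 and 85.6 CPM against 80.6, 91.3, 72.5 and 87.1 CPM, a log2 fold change of -0.16 ± 0.110 (edgeR adjusted p = 0.462). Both genes overlapped between the ages. Atp5s, the coupling factor, was the lowest of these 16 per length and had 16.7, 15.7, 17.2 and 16.6 CPM at 12 weeks and 17.4, 18.8, 16.4 and 18.3 CPM at 68 weeks.

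Atp5g1, Atp5g2 and Atp5g3 encode the same mature subunit c, which forms the rotating ring, behind different import sequences. Atp5g1 had 858, 1095, 969 and 943 CPM at 12 weeks and 965, 1013, 885 and 1050 CPM at 68 weeks. Atp5g3 had 747, 934, 836 and 837 CPM against 880, 900, 760 and 875 CPM. The log2 ratio of these genes was 0.20 ± 0.0243 at 12 weeks and 0.20 ± 0.0571 at 68 weeks (SD, n = 4 each; exact permutation p = 0.857). Atp5g2 had 81.6, 100, 129 and 140 CPM against 119, 137, 133 and 121 CPM, with 12-week replicates 1 and 2 lowest, and its ratio to Atp5g3 gave an exact permutation p of 0.343.

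Cytochrome c is encoded by Cycs in the heart. It had 254, 310, 329 and 302 CPM at 12 weeks and 314, 330, 287 and 337 CPM at 68 weeks, and its log2 fold change was 0.08 ± 0.0841 (edgeR adjusted p = 0.628).

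Summed per length, the 83 nuclear members made up 55388 ± 3592 TPM at 12 weeks and 50882 ± 1009 TPM at 68 weeks, and the 13 mitochondrial members 168368 ± 30564 and 189984 ± 16257 TPM (SD, n = 4 each). The ratio of 68 to 12 weeks was 0.919 for the nuclear sum and 1.13 for the mitochondrial sum. TPM values share a fixed total, so a larger mitochondrial sum lowers the rest, and scaled to nuclear genes alone the nuclear ratio was 0.955. By complex the nuclear TPM ratios ran from 0.903 for complex IV to 0.937 for complex II, and Cycs stood at 0.995. In the sum of each genome the libraries of the 2 ages overlapped. Of the nuclear complexes, only complex IV did not overlap in TPM, with 15903 to 18348 TPM at 12 weeks and 15025 to 15835 TPM at 68 weeks. In CPM, without lengths, its sums did overlap, with 6392 to 7345 against 6225 to 6708 CPM. These sums were not tested.

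The members varied less among the older libraries. The SD of log2 CPM within an age had a median over the nuclear members of 0.122 at 12 weeks and 0.0735 at 68 weeks, and it was smaller at 68 weeks in 72 of 81 (88.9%). Over the 15839 genes tested that had counts in every library, the medians were 0.135 and 0.124, and it was smaller at 68 weeks in 54.8%. For the mitochondrial members the medians were 0.416 and 0.130. Single libraries set much of the spread of nuclear members: 12-week replicate 1 was lowest of all 8 for 45 of the 81, 68-week replicate 3 for 29, and 12-week replicate 2 was highest for 48. The libraries lowest for most nuclear members also had the highest sums of airway markers, at 1875 and 1121 CPM, while 12-week replicate 2 had the third highest, at 998 CPM. The part of the airway transcripts in this spread was not tested.

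Genes that assemble, express or supply the system were read from 12 lists with 163 genes tested, of which edgeR called 3 higher and 0 lower at 68 weeks. That is 1.84%, below the 2.83% called over all genes, so the count is no result about these lists. Lyrm7, a chaperone of the complex III iron-sulfur protein, was the 1 called of 6 assembly genes of that complex. It had 15.6, 16.1, 17.99 and 16.2 CPM at 12 weeks and 19.8, 19.9, 19.0 and 20.2 CPM at 68 weeks, with no overlap. The log2 fold change was 0.26 ± 0.0587 (edgeR adjusted p = 0.0487). Coq10b, a ubiquinone-binding protein, was the 1 called of 19 genes of electron carriers and entry, with 41.4, 44.8, 46.1 and 47.5 CPM against 54.2, 54.6, 50.4 and 56.2 CPM and a log2 fold change of 0.26 ± 0.0556 (edgeR adjusted p = 0.0427).

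Nfe2l2, the transcription factor NRF2 of the antioxidant response, was the 1 called of 20 regulators, with 52.9, 52.8, 57.3 and 60.5 CPM at 12 weeks and 65.3, 76.9, 66.8 and 74.6 CPM at 68 weeks. Its log2 fold change was 0.34 ± 0.0697 (edgeR adjusted p = 0.0365). These 3 calls lay close to the threshold. All 3 genes lay above 0 in each of 18 alternative fits, and the call held in 4 of them for Lyrm7, 7 for Coq10b and 8 for Nfe2l2. Leaving out 12-week replicate 1, 12-week replicate 2, 68-week replicate 2 or 68-week replicate 4 ended all 3 calls. So did leaving out 12-week replicate 3 for Coq10b and Nfe2l2, 68-week replicate 1 for Lyrm7 and Coq10b, and 12-week replicate 4 or 68-week replicate 3 for Lyrm7. Over all alternatives the adjusted p ran from 0.0141 to 0.414 for Lyrm7, from 0.00263 to 0.321 for Coq10b and from 0.000592 to 0.351 for Nfe2l2.

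No gene was called in the other 9 lists, and the 2 genes with the smallest p in each gave these log2 fold changes. Among assembly factors, Aifm1 (-0.15) and Foxred1 (-0.12) serve complex I, Sdhaf1 (0.31) and Sdhaf2 (0.14) complex II, Cox19 (0.44) and Coa5 (0.20) complex IV, and Atpaf2 (-0.18) and Atpaf1 (0.09) complex V. Ttc19, the next gene of the complex III list, had 0.16.

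For expression of mitochondrial RNA, 21 of 27 genes lay above 0, with Fastkd1 (-0.16) and Ptcd3 (0.14) of smallest p. For upkeep of mitochondrial DNA, 8 of 17 did, with Top3a (-0.31) and Opa1 (0.16). The list of abundant mitochondrial proteins often used to gauge mitochondrial content (citrate synthase, import and outer membrane channels, carriers, chaperones, prohibitins and Immt) lay above 0 in 14 of 16, with the outer membrane channel Vdac2 (0.21) and the ADP/ATP carrier Slc25a5 (0.20) of smallest p. Subunits and partners outside the name rule included Cox7a2l (0.11) and Cox14 (0.12), with 5 of 8 above 0. Over all genes tested 47.9% lay above 0 in the same fit. With library totals as the only scaling the counts above 0 were 16 of 27, 5 of 17, 11 of 16 and 4 of 8 for these lists, in the order given. The median over all genes also moved with that scaling, from -0.01 to -0.07, so these counts cannot be set beside the 47.9%. Among regulators and electron entry, Nrip1 (-0.38) and Gpd2 (-0.90), the mitochondrial glycerol phosphate dehydrogenase, came next after the called genes. None of these passed the edgeR threshold.

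The 3 uncoupling proteins all lay below 0, with 0 called by edgeR. Ucp3, the form of muscle, had 97.4, 81.2, 74.0 and 68.5 CPM at 12 weeks and 60.6, 60.1, 45.6 and 38.9 CPM at 68 weeks, with no overlap, a log2 fold change of -0.65 ± 0.155 and an edgeR adjusted p of 0.0616. Ucp1 had a log2 fold change of -2.56 ± 0.891 (edgeR adjusted p = 0.162), from the values given above.

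No member was linked to an H3K27me3 region. The authors' deposited list for 68 weeks holds 3433 regions with 1257 linked genes, and that for 12 weeks holds 1164 regions with 537 linked genes. These are few beside the 49315 genes of the count table, so 0 of 96 members is no result about the members. Of the other genes of the system, Esrrb was linked to a region in both lists and Esrrg, the estrogen-related receptor gamma, in the 68-week list.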

How the data were processed

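Total RNA of heart tissue was sequenced in 8 libraries. Per the submitters' processing notes, tools named for the series include Trimmomatic 0.36, STAR 2.5.2b, featureCounts of Subread 1.5.2 and build mm10. The authors deposited raw counts per gene, which are whole numbers, and gene lengths. Use of strand and of reads with multiple matches is not given in the sources used here. Each library's own table and the series table held identical counts.

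Genes were filtered with filterByExpr, scaled by TMM and tested with edgeR 4.0.16 (R 4.3.3) by glmQLFTest, age alone, with Benjamini-Hochberg adjustment over all genes tested. DESeq2 1.42.0 was an alternative. The fit was also run on simulated counts with 200 changed genes, drawn for each gene independently. The simulation held no shift shared by many genes of a library, so it does not test the fit under such shifts. TPM was computed from counts and the deposited lengths. The 95% intervals use the test's F statistic and total degrees of freedom. Isoform ratios used an exact two-sided permutation test. All pairs of same-age libraries differed by more than counting noise (chi-square divided by its degrees of freedom, 15.7 to 39.6).

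Members and lists were chosen with earlier results of these data known. Named with values were the 13 mitochondrial mRNAs, the 2 nuclear members of smallest p and the highest and lowest per length in each complex, and the isoform pairs; of other lists, the 2 genes of smallest p and any called. Other scalings, no filter, the replicate number as a block, airway markers as a term and each library left out were tried. The H3K27me3 region lists, which the authors deposited with an enrichment score per region whose making is not given in the sources used here, were used only for their linked genes. Alternatives without 12-week replicates 3 and 4, and with airway markers and without 12-week replicates 1 and 2, were chosen after seeing the data.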

Additional observations from a re-analysis of the deposited data

Results flagged for a closer look

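In groups of 4 libraries, a library was singled out where its gap to the nearest other exceeded 0.829 of the group's range (Dixon's critical value). Chance alone does this in about 1 in 20 groups, and 5 of 150 groups were singled out. At 12 weeks, Uqcrb stood at 271.0 CPM in replicate 1 against 316 to 325 CPM, Cox4i2 at 3.947 CPM in replicate 1 against 3.21 to 3.31 CPM, and Sdhb at 647.0 CPM in replicate 2 against 574 to 582 CPM. At 68 weeks, mt-Nd3 stood at 53.58 CPM in replicate 1 against 47.2 to 47.7 CPM, and Cox8c at 0.03605 CPM in replicate 2, a single count, where it is listed at 0 in the others.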

How the results depend on the processing

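The count of members called stayed at 0 under the other scalings, DESeq2, no filter, the replicate block, airway markers as a term, leaving out any single library and leaving out 12-week replicates 1 and 2. In fits chosen after seeing the data, 9 mitochondrially encoded members were called higher without 12-week replicates 3 and 4, and 1 nuclear member, Cox6a1, was called higher with airway markers as a term and without 12-week replicates 1 and 2. The number of all genes called went from 451 to 1012 with DESeq2, 160 with the replicate block, 88 with airway markers, 73 without 12-week replicates 1 and 2, 215 without 12-week replicates 3 and 4, 50 with both airway markers and without 12-week replicates 1 and 2, and 171 to 334 with a single library left out. Replicate numbers did not pair the libraries: deviations of same-numbered libraries correlated at -0.24, -0.04, 0.04 and 0.33 across genes. The Cox7a1 to Cox7a2 log2 ratio difference ran from -0.30 to -0.22 with a library left out. Of the 39 members named with values, 25 changed sign in at least 1 fit without being called there. With library totals only, 176 genes were higher and 248 lower, against 256 and 195. The intervals reached a median of 0.15 log2 to either side for nuclear and 0.40 log2 for mitochondrial members, which limits the differences these libraries can show.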
